A study of Mus musculus with 6 samples.

Results

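The genes described here encode the subunits of the proteasome, the proteins that assemble it, and its activators and inhibitor. They were taken from the deposited gene table as every protein-coding gene whose symbol is Psm followed by a letter from a to g and a digit, which gave 50 of 48709 genes. The table comes from iNKT (invariant natural killer T) cells of the mouse spleen, lymphocytes whose semi-invariant receptor binds lipids on CD1d, purified by flow sorting. The labels describe 3 WT samples and 3 Gpx4 cKO samples, all in the resting state, and Gpx4 encodes an enzyme that reduces lipid peroxides in membranes. The labels name neither the Cre driver nor the age, strain or pooling of the mice, so it is not known here in which cells besides iNKT cells the gene was deleted. The 6 libraries of the table carry the numbers 18 to 23, and none of their names occurs in a label. No library was therefore assigned a genotype, the genotypes were not compared, and all values are given by library number.

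The proteasome is the protease that degrades ubiquitin-tagged proteins in the cytosol and nucleus. Its barrel-shaped core is a stack of rings of alpha subunits, which form the gate, and of beta subunits, of which 3 kinds cut peptide bonds. A regulatory particle caps the barrel. The base of this particle contains a ring of ATPases that unfolds substrates, and its lid contains the subunit that removes ubiquitin. In lymphocytes much of the core carries the immunoproteasome subunits Psmb8, Psmb9 and Psmb10 in place of Psmb5, Psmb6 and Psmb7, which changes the peptides available to MHC class I.

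RefSeq promoter windows of build GRCm38.p6, from 250 bases before to 50 bases after a transcription start, were available for 42 of the 50 genes. The genes without a window were Psma8, Psmb1, Psmb2, Psmb7, Psmc3, Psmd3, Psmd7 and Psmg2, and the counts below leave them out. The ETS-type motif CCGGAAG, searched on both strands, was found in 15 of the 42 (35.7%), against 9.93% of the 27025 genes with such windows. It was found for 9 of the 14 base and lid genes with a window (64.3%), for 1 of 11 constitutive core genes (Psma6) and for 0 of the 3 immunoproteasome genes. A gene with several starts counted once if any of its windows held the motif, and windows were not matched for base composition. The following 4 stretches are shown because they come from the group of genes, the regulatory particle, in which the motif was most frequent. They are the lid genes Psmd6 (chr14:14120971-14121065, minus strand) and Psmd11 (chr11:80428495-80428614, plus strand), the base gene Psmd2 (chr16:20651532-20651651, plus strand) and the ATPase gene Psmc6 (chr14:45329668-45329787, plus strand). Each is written 5′ to 3′ on the strand of its gene, with the motif or its reverse complement in capitals.
Psmd6: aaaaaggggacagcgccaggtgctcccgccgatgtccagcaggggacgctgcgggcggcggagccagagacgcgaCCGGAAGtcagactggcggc
Psmd11: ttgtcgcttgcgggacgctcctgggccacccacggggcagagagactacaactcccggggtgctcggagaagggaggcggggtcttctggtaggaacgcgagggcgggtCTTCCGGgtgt
Psmd2: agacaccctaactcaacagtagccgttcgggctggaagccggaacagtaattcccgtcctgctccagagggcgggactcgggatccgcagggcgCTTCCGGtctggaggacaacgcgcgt
Psmc6: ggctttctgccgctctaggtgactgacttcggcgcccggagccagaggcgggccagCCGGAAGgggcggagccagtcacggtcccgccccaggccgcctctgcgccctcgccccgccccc

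The motif begins 45 bases before the start in Psmd6, 11 before it in Psmd11, 26 before it in Psmd2 and 100 before it in Psmc6. Other motifs searched gave the following counts. The interferon-type motif of 2 copies of GAAA separated by 2 bases was found for 5 of the 42 genes (11.9%, against 3.99% of all): Psmb3, Psmd4, Psmd9, Psme1 and Psmg4. The STAT-type motif TTCNNNGAA was found for 3 genes (7.14%, against 9.55% of all), Psmb8, Psmd2 and Psmg1. The antioxidant response element core TGACNNNGC was found for 6 genes (14.3%, against 14.0% of all). The NRF1 motif GCATGCGC was found for 3 genes (7.14%, against 3.05%), CCAAT for 15 (35.7%, against 41.1%) and the SP1 core GGGCGG for 23 (54.8%, against 38.2%). A match is a run of letters in these windows and does not show that a factor binds there.

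Levels are given as CPM, the exon reads of a gene per 1000000 reads of an effective library size scaled with edgeR's TMM factors. Depth, as total exon reads, was 8020374, 10122187, 5432206, 903524, 5406110 and 1916746 in libraries 18 to 23. A gene without reads could still lie at up to 0.282 CPM in the deepest library and up to 3.62 CPM in library 21, the shallowest. Among the other cell markers examined, T and NKT cell genes summed to 3973 to 5373 CPM, with all 7 read in every library. The 7 B cell genes summed to 977 to 5233 CPM, most of it Igkc. Erythroid genes summed to 4.34 to 289 CPM, and the 7 myeloid genes found of 8 to 4.61 to 7.45 CPM, with S100a8 at 0 in all 6 libraries. The 5 NK cell genes summed to 54.8 to 97.5 CPM, mostly Klrb1c, with Klra8 at 0 in all libraries. Genes of the early response to stimulation summed to 1038 to 4332 CPM.

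Proteasome RNA took a share of similar size in every library. The 50 genes together took 0.423%, 0.373%, 0.376%, 0.368%, 0.378% and 0.401% of exon reads in libraries 18 to 23. Their summed level was lowest in library 19, at 3560 CPM, and highest in library 18, at 4085 CPM (1.15-fold). At least 200 reads, the minimum for the test, were reached by 45 genes. The exceptions were the catalytic subunit Psmb5 (173 reads), the assembly chaperone Psmg3 (121), the meiotic recombination factor Psmc3ip (87), which shares only its name with the group, the thymic subunit Psmb11 (11) and the testis subunit Psma8, whose 4 reads all fell in library 22.

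Small differences between libraries were nevertheless common. A chi-square test of each gene's counts against the library sizes, adjusted by the Benjamini-Hochberg method over 9042 genes, called 37 of the 45 genes as varying by more than counting error. This is 82.2%, against 71.6% of all genes tested, and the proteasome genes had more reads (median 2264, against 1290.5). The variation was of the usual size: the median ratio of highest to lowest library was 1.49, against 1.58 over all tested genes, and the coefficient of variation beyond counting error was 13.4% against 13.03%. Ratios above 1.5 were seen for 22 of 45 genes (background 57.0%) and ratios above 2 for 5 (background 27.1%). The test compares libraries and carries no information on genotype. The labels do not say that samples come from separate animals, so p-values measure only the spread between these libraries, which may be technical. Intervals and tests cover counting error only.

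**Figure D1:**
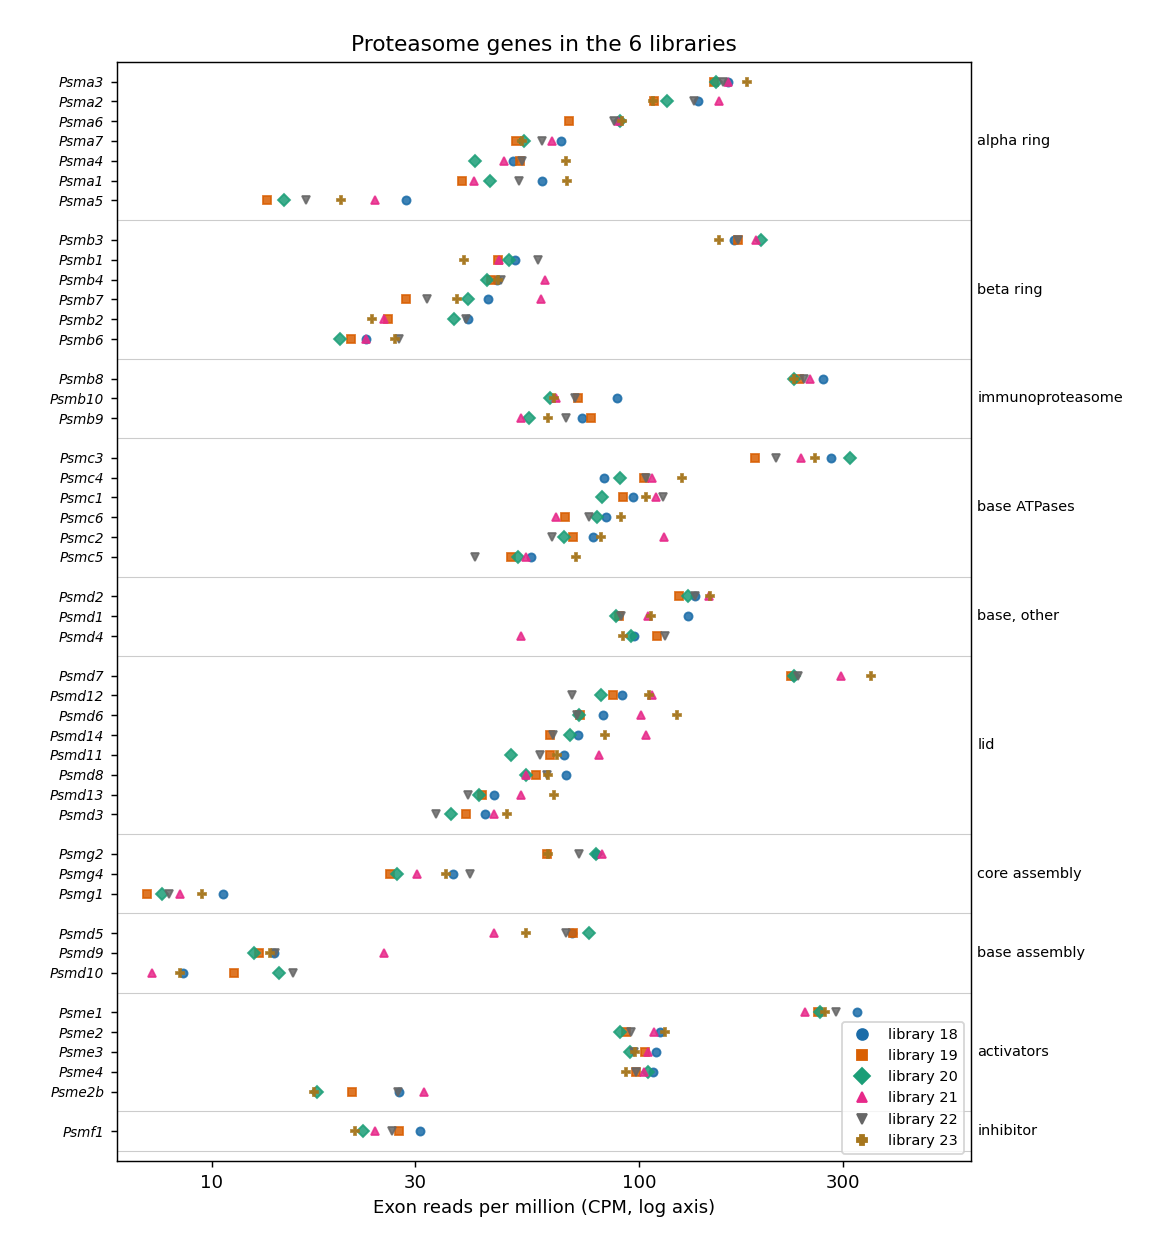
Level in CPM (log axis) of the 45 proteasome genes with at least 200 reads, 1 row per gene and 1 symbol per library, grouped by role. Most genes stay within a 2-fold range, Psmd4 has 1 low library (53.1 CPM in library 21), and the lid gene Psmd7 is highest in libraries 21 and 23.

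The alpha ring, which forms the outer rings and gate of the barrel, summed to 594, 483, 513, 582, 562 and 587 CPM in libraries 18 to 23. All 7 tested alpha genes were called (background 71.6%). Below their own median were 6 of the 7 in library 19 (49.0% of all tested genes) and 6 of the 7 in library 20 (51.0%). Per kilobase of exon, Psma2 was the highest, with a median of 133 CPM per kilobase, and Psma5 the lowest of those tested, with 13.9. Per kilobase of the principal transcript Psma2 was at 43.2, and Psma6 was the highest, at 85.98. The principal transcript of Psma2 (2911 bases) is longer than all its exons in the deposited table (944 bases). The gene models therefore differ, and the rank of Psma2 depends on the length used. In CPM, Psma2 was at 138, 108, 116, 154, 135 and 108 in libraries 18 to 23. Psma5 was at 28.4, 13.5, 14.7, 24.1, 16.6 and 20.03 CPM in libraries 18 to 23. Its range was 2.11-fold (adjusted p of the chi-square test 7.05e-12). Library 18 stood highest, and without it the call was lost (adjusted p 0.0688). Psma1 ranged from 38.5 CPM in library 19 to 68.0 in library 23, with 59.4, 44.7, 41.0 and 52.4 in libraries 18, 20, 21 and 22 (1.77-fold, adjusted p of the chi-square test 5.62e-11). The remaining tested alpha genes, Psma3, Psma4, Psma6 and Psma7, ranged from 1.20-fold to 1.64-fold. The calls of Psma3, Psma4, Psma6 and Psma7 were each lost on leaving out at least 1 library. Without library 19, for example, Psma6 had an adjusted p of 0.989. Psma3 also lost its call with total exon reads (0.111), DESeq2 size factors (0.0515), unfiltered TMM (0.0989) and uniquely mapped reads (0.0540).

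The constitutive beta ring summed to 378, 342, 391, 404, 382 and 332 CPM in libraries 18 to 23. Of its 6 tested genes 4 were called (background 71.6%), and the structural subunit Psmb4 and the catalytic subunit Psmb6 were not (adjusted p of the chi-square test 0.472 and 0.106). Psmb3, a structural subunit, was the highest per kilobase (median 74.2 CPM per kilobase), with 167, 171, 193, 188, 170 and 154 CPM in libraries 18 to 23. Without library 20 its call was lost (adjusted p 0.344). Psmb5, which carries the chymotrypsin-like activity, was the lowest, at 5.57 CPM per kilobase. It had 5.66, 4.05, 7.09, 1.21, 6.65 and 3.69 CPM in libraries 18 to 23. The value of library 21 rests on a single read (95% exact Poisson interval 0.0306 to 6.72), and the interval of library 18 runs from 4.16 to 7.53. Psmb7, the trypsin-like subunit, had 44.5, 28.4, 39.8, 59.1, 31.9 and 37.4 CPM in libraries 18 to 23. Its range was 2.08-fold, or 1.56-fold without library 21 (adjusted p 7.17e-09 over all libraries). Psmb6, the caspase-like subunit, had 23.01, 21.2, 19.999, 22.9, 27.5 and 26.9 CPM in libraries 18 to 23. Psmb1 and Psmb2 ranged 1.49-fold and 1.68-fold, and Psmb1 was not called without library 22 or without library 23.

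The immunoproteasome subunits were higher than, or close to, their constitutive counterparts. Psmb8 had 270, 238, 230, 252, 244 and 231 CPM in libraries 18 to 23. All 6 values fall within a 1.17-fold range, and the call (adjusted p of the chi-square test 5.96e-05) was lost without library 18 (adjusted p 0.497). Psmb9 had 73.6, 77.4, 55.5, 53.1, 67.6 and 61.2 CPM in libraries 18 to 23, with libraries 19 and 18 highest (1.46-fold, adjusted p 1.51e-05). Psmb10 had 88.9 CPM in library 18 and 71.9, 61.8, 64.0, 70.9 and 63.3 CPM in libraries 19 to 23. Its range was 1.44-fold (adjusted p 3.14e-07), and without library 18 it was no longer called (adjusted p 0.134). Summed, the 3 genes reached 432 CPM in library 18 and 348 to 387 CPM in the other 5 libraries. B cell markers were lowest in libraries 18 and 19 (977 and 1976 CPM, against 3899 or more in the others), and their part in these values was not tested.

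Within each catalytic pair, levels were compared per kilobase of exon, as the share of the immunoproteasome subunit. Psmb8 made up 93.8%, 94.9%, 91.2%, 98.5%, 92.1% and 95.2% of Psmb8 and Psmb5 in libraries 18 to 23. Psmb9 made up 62.1%, 65.1%, 58.7%, 54.2%, 55.7% and 53.8% of Psmb9 and Psmb6 in the same order. Psmb10 made up 80.1%, 83.5%, 75.7%, 68.5%, 81.7% and 77.2% of Psmb10 and Psmb7. By this measure the Psmb8 pair was the most one-sided in all 6 libraries and the Psmb9 pair the most even. Exact binomial intervals for Psmb9 included an equal share in libraries 21 (40.4% to 68.2%) and 23 (45.4% to 62.3%) and lay above it in the other 4. The read shares differed between libraries in each pair, with chi-square p-values adjusted over the 3 pairs of 0.0290 for Psmb8, 0.0109 for Psmb9 and 1.08e-05 for Psmb10.

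The length used matters for these shares. With the length of the principal transcript in place of all exons, the median share was 96.7% for Psmb8, 60.6% for Psmb9 and 61.9% for Psmb10, so that the medians of Psmb9 and Psmb10 lay closer together than per kilobase of all exons (57.2% and 78.6%). By principal length Psmb10 was the more even pair in libraries 18, 20 and 21, and by reads alone it was so in all 6 (median 64.7%, against 72.3% for Psmb9). In library 21 the share of Psmb10 by principal length was 48.9% (exact binomial interval 38.9% to 59.0%). Psmb10 lies on chromosome 8 at 105935735 to 105938444, while Psmb8 and Psmb9 are neighbours on chromosome 17, at 34197721 to 34201454 and 34181988 to 34187764, beside the peptide transporter genes Tap1 and Tap2. Psmb9 and Tap1 overlap by 212 bases on opposite strands, and the use of strand in counting is not given in the sources used here, so reads in the overlap cannot be assigned to either with certainty. The exons of Psmb7 overlap Nek6 on the opposite strand.

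**Figure D2:**
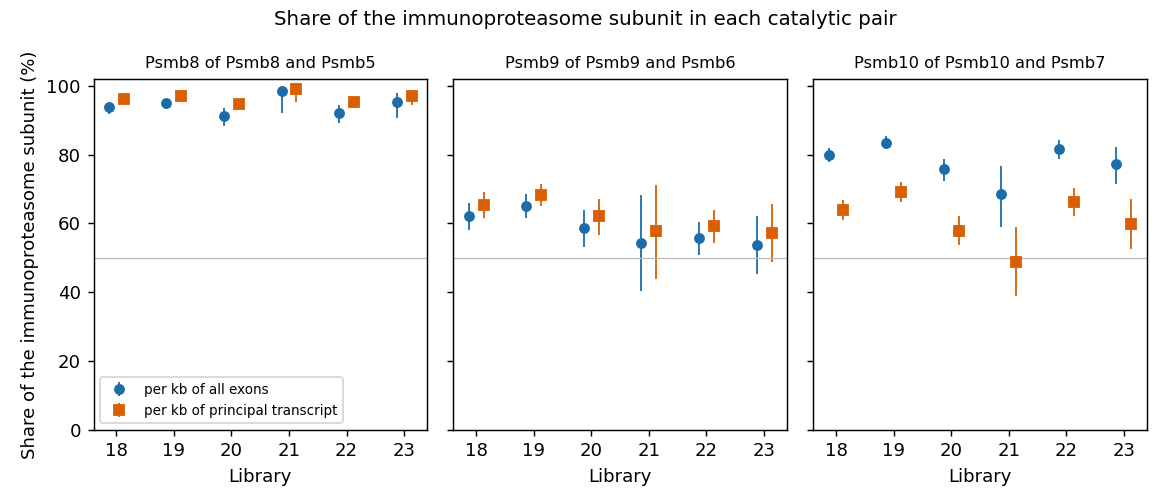
Share of the immunoproteasome subunit in each catalytic pair by library (%), per kilobase of all exons (circles) and per kilobase of the principal transcript (squares), with 95% exact binomial intervals. Psmb8 lies above 91% in all 6 libraries by both lengths, while the shares of Psmb9 and Psmb10 lie nearer to the line at 50%.

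The ATPases of the base summed to 680, 569, 684, 690, 608 and 732 CPM in libraries 18 to 23, and all 6 were called (background 71.6%). Psmc3 was the highest per kilobase (median 95.6 CPM per kilobase). It had 282, 187, 313, 240, 210 and 258 CPM in libraries 18 to 23 (1.67-fold, adjusted p of the chi-square test 5.65e-67). Libraries 20 and 18 were highest and library 19 lowest, and the order did not follow depth. Its exons overlap those of Slc39a13 on the opposite strand. Psmc2 was the lowest per kilobase of exon (14.7), but per kilobase of the principal transcript it was at 41.5, above Psmc5 (40.5) and Psmc6 (35.0). The principal transcript of Psmc6 (2234 bases) is longer than all its exons in the deposited table (1564 bases), so its gene models differ. Psmc2 had 115 CPM in library 21 and 78.2, 70.0, 66.9, 62.6 and 81.7 CPM in libraries 18, 19, 20, 22 and 23. Its range was 1.83-fold, or 1.31-fold without library 21. Psmc5 ranged from 41.3 CPM in library 22 to 71.2 in library 23, with 56.0, 50.2, 52.2 and 54.3 in libraries 18 to 21 (1.72-fold, adjusted p 7.85e-05). Psmc1, Psmc4 and Psmc6 ranged from 1.39-fold to 1.52-fold, and Psmc6 was not called without library 19 (adjusted p 0.159).

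The other base subunits, which hold ubiquitin receptors and the scaffold, summed to 304 to 363 CPM. Psmd4, a ubiquitin receptor and the highest per kilobase (34.4 CPM per kilobase), had 97.3, 110, 96.0, 53.1, 115 and 91.7 CPM in libraries 18 to 23. This was the widest range of the 45 genes, 2.17-fold, and it came from library 21 (44 reads, exact Poisson interval 38.6 to 71.3 CPM): without it the range was 1.26-fold, and the gene was still called. Psmd1, the lowest per kilobase (21.5), had 130.6 CPM in library 18 and 89.8, 88.4, 105, 90.8 and 107 CPM in libraries 19 to 23. Its call (adjusted p 6.44e-19) was lost without library 18 (adjusted p 0.163), and 89.7% of its exon reads mapped uniquely. Psmd2 lay between 124 and 147 CPM and was not called (adjusted p of the chi-square test 0.0887).

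Of the role groups with more than 1 gene, the lid had the widest summed range, 1.42-fold, and all 8 of its genes were called (background 71.6%). Together they summed to 700, 651, 637, 845, 634 and 899 CPM in libraries 18 to 23. The shallowest libraries, 21 and 23, were thus higher than the other 4. Their 95% exact Poisson intervals, 783 to 910 and 857 to 943 CPM, did not overlap that of library 18, the next highest (682 to 718). Psmd7, a partner of the deubiquitinase, had 230, 227, 231, 298, 236 and 350 CPM in libraries 18 to 23 (adjusted p 5.42e-23). Psmd6 had 82.4, 73.0, 72.4, 101, 71.8 and 123 CPM in the same order (1.71-fold, adjusted p 1.02e-11). Psmd3, the lowest per kilobase (8.36, against 148 for Psmd7), had 43.6, 39.5, 36.4, 45.9, 33.6 and 49.0 CPM, and its call was lost without library 22 (adjusted p 0.110).

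Libraries 21 and 23 were singled out after their values had been seen, so the following counts are descriptions. Both lay above the other 4 for 6 of the 8 lid genes, Psmd3, Psmd6, Psmd7, Psmd12, Psmd13 and Psmd14, where the share over all tested genes was 12.2%. With total exon reads as library sizes it was 5 of 8, against 6.90% of all genes. Outside the lid it held for 3 of the 37 other tested genes, Psmc2, Psmc4 and Psmd2, and for 0 of the 13 tested core genes and 0 of the 3 immunoproteasome genes. With total exon reads it held for 0 of the 6 ATPases. The lid subunit gene Shfm1 (also named Sem1), which the symbol rule does not take, was also highest in these libraries, at 71.2 and 64.3 CPM. It had 54.0, 61.0, 50.5 and 59.3 CPM in libraries 18, 19, 20 and 22 (adjusted p of the chi-square test 0.0320). Of the 8 lid genes, Psmd8 and Psmd11 did not follow. Psmd8 was highest in library 18, and Psmd11 was highest in library 21 with library 23 below library 18. Psmd8 lost its call without library 18, 19 or 20, Psmd11 without library 20 and Psmd13 without library 23. Without libraries 21 and 23 Psmd7 had a range of 1.04-fold and was not called (adjusted p 0.759), as were Psmd6 (0.0657), Psmd13 (0.440) and Psmd14 (0.0524). Genes of the cell cycle were high in the same libraries: the 10 markers summed to 924 CPM in library 21 and 1205 in library 23, and to 456 to 632 CPM in the other 4. The part of cycling cells or of depth in the lid values was not tested, and in bulk RNA fewer cells of a type and less RNA per cell cannot be told apart.

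**Figure D3:**
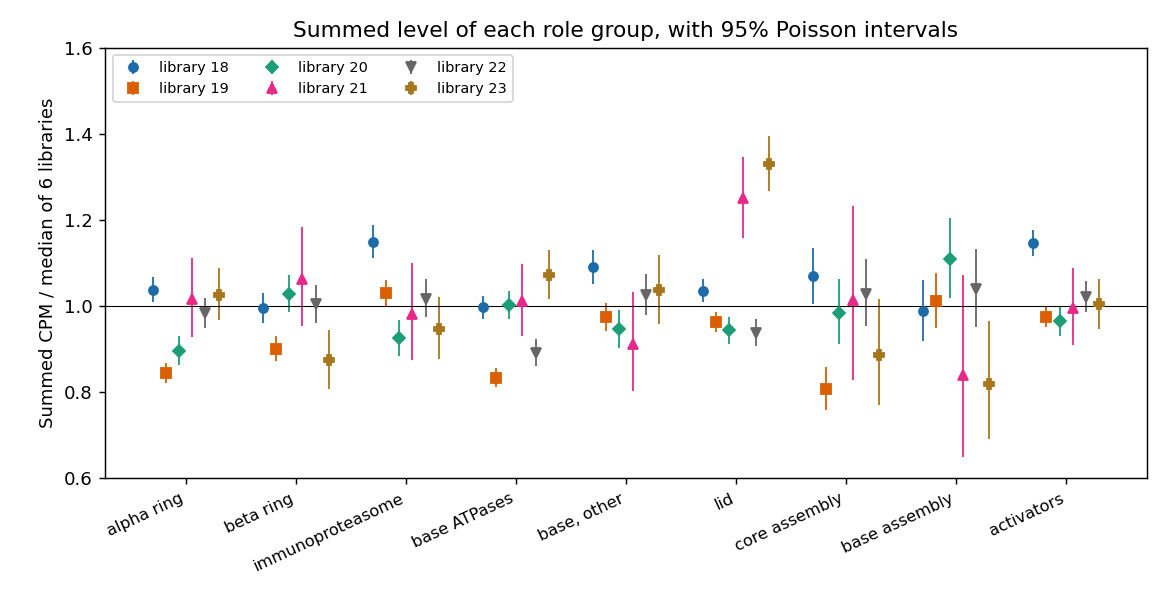
Summed CPM of each role group in each library divided by its median over the 6 libraries, with 95% exact Poisson intervals. The lid stands at 845 CPM in library 21 and 899 in library 23 against 634 to 700 in the others, and library 18 is highest for the immunoproteasome (432 CPM) and the activators (682 CPM).

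Of the role groups with more than 1 gene, the assembly chaperones had the lowest summed levels. The core chaperones Psmg1 to Psmg4, which help alpha rings form, summed to 97.9 to 130 CPM. Psmg2 was the highest per kilobase (71.6), with 79.5, 61.0, 79.3, 82.1, 72.4 and 61.2 CPM in libraries 18 to 23, and its call was lost without library 19 (adjusted p 0.0841). Psmg3 was the lowest (3.72 CPM per kilobase), with 1.58 to 5.45 CPM. Psmg4 ranged from 26.2 to 40.2 CPM, and Psmg1 from 7.06 to 10.6 CPM without being called (adjusted p of the chi-square test 0.194).

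The base chaperones Psmd5, Psmd9 and Psmd10 summed to 76.4 to 103 CPM and were lowest in libraries 21 and 23, the libraries in which the lid was highest. The 95% exact Poisson interval of library 21, 60.5 to 99.98 CPM, overlapped those of libraries 18, 19, 20 and 22. Psmd5 was the highest per kilobase (11.2), with 69.6, 70.1, 76.5, 45.9, 67.4 and 54.3 CPM in libraries 18 to 23, and without libraries 21 and 23 it was not called (adjusted p 0.360). Psmd10, also known as gankyrin, had 8.55, 11.3, 14.4, 7.24, 15.5 and 8.44 CPM (2.14-fold, adjusted p 0.00203). Libraries 20 and 22 were highest for Psmd10, and the value in library 21 rests on 6 reads. Psmd9 (2.87 CPM per kilobase) had 25.3 CPM in library 21, from 21 reads, and 12.5 to 14.0 CPM in the other 5, and was not called (adjusted p 0.120).

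The activators bind the ends of the core in place of the regulatory particle and open its gate. Psme1 and Psme2 form the interferon-inducible PA28 ring, Psme3 a nuclear ring, and Psme4 is the large activator PA200. Psme1 was among the most abundant genes of the whole set, with 324, 263, 266, 245, 289 and 274 CPM in libraries 18 to 23 (1.32-fold, adjusted p of the chi-square test 1.09e-13). Without library 18 its adjusted p was 0.0511, just past the threshold. Psme2 had 112, 93.1, 90.2, 109, 96.0 and 115 CPM (1.27-fold, adjusted p 7.84e-05). Per kilobase, Psme2 made up 29.4% to 35.7% of Psme1 and Psme2, and the chi-square test found no difference of this share between libraries (p = 0.0715). Psme1 and Psme2 lie 5911 bases apart on chromosome 14.

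Psme3 and Psme4 showed the narrowest ranges of all tested genes in the set. Psme3 had 110, 103, 95.3, 105, 97.3 and 98.1 CPM (1.15-fold, adjusted p of the chi-square test 0.129). Psme4 had 108, 98.8, 105, 103, 98.4 and 93.3 CPM (1.16-fold, adjusted p 0.261). Psme3 was called with total exon reads as library sizes (adjusted p 0.0139), with unfiltered TMM (0.0193) and without libraries 21 and 23 (0.0477). Psmf1, which encodes the inhibitor PI31, had 30.7, 27.5, 22.5, 24.1, 26.4 and 21.6 CPM and was not called (adjusted p 0.0741), but it was called with total exon reads (0.0222), with unfiltered TMM (0.0239) and without library 19, 21 or 22 (0.0424 to 0.0458). Psme2b, an intronless copy of Psme2 on chromosome 11, had 27.5, 21.3, 17.6, 31.4, 27.3 and 17.4 CPM (1.80-fold, adjusted p 0.000416). Its transcript matches that of Psme2 at 789 of 794 aligned bases (99.4%). Only 67.5% of its exon reads and 72.7% of those of Psme2 mapped uniquely, so the division of reads between the copies is uncertain. The exons of Psme2b also overlap those of 9930111J21Rik1 on the same strand, so reads in the overlap cannot be assigned to either with certainty.

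The genes were also compared library by library. Each gene's log2 CPM (prior count 2) was taken relative to its own median over the libraries. The median over the 45 genes was 0.09, −0.08, −0.09, 0.06, 0.00 and 0.05 in libraries 18 to 23, with the median of all tested genes within 0.01 of 0 in each. In library 18, 37 of 45 genes lay above their median, against 50.6% of all genes. In library 19, 36 of 45 lay below it (49.0% of all genes), and in library 20 34 of 45 (51.0%). Library 18 was the highest for 12 genes (background 12.2%) and library 19 for 1 (background 14.6%), Psmb9. These shifts are small, and with total exon reads the median of all genes moves by −0.12 in library 21, where the proteasome median becomes −0.02.

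**Figure D4:**
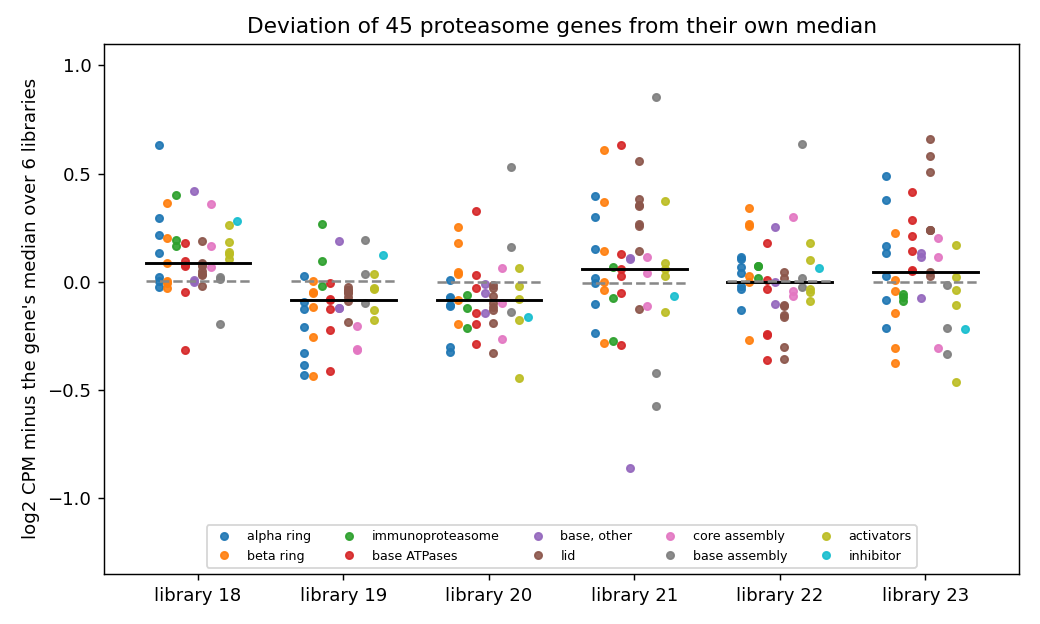
Deviation of the 45 tested proteasome genes from their own median (log2 CPM) in each library, coloured by role, with the median of the genes as a solid line and that of all tested genes as a dashed line. The solid line stands at 0.09 in library 18 and at −0.08 and −0.09 in libraries 19 and 20. Lid genes other than Psmd8 and Psmd11 lie above it in both libraries 21 and 23.

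Intron reads were few in these genes. Of their exon and intron reads, introns took 25.3%, 27.2%, 26.1%, 24.3%, 23.7% and 24.3% in libraries 18 to 23. Over all protein-coding genes with an exon read, the share was 44.5% to 49.7%. By gene, the pooled share had a median of 19.8% over the 45 tested genes, against 39.2% over the 8767 tested protein-coding genes. It was above 50% for 8 of 45 (35.4% of all) and below 10% for 12 (11.7% of all). The gap between these genes and the rest was seen in every library and was larger than the spread between libraries.

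The share differed widely between subunits of the same complex. The lid deubiquitinase Psmd14, a gene on chromosome 2 at 61711694 to 61800376, had 74.6% of its reads on introns, ranging from 63.4% in library 21 to 76.9% in library 19. Psmb7 (71.6%), Psmb2 (70.8%) and Psme4 (63.9%) followed. At the other end stood Psme1 with 0.238%, Psmb8 with 2.14%, Psme2 with 2.55% and the lid gene Psmd7 with 3.71%, while Psme2b has no intron. Among the catalytic pairs, Psmb10 had 4.84% against 71.6% in Psmb7, Psmb9 13.3% against 36.5% in Psmb6, and Psmb8 2.14% against 54.1% in Psmb5. The share followed gene size: over the 44 tested genes with bases outside exons, Spearman's rho with the number of those bases was 0.78, a description across genes, which are not independent replicates, and it was 0.75 over 8603 tested protein-coding genes. Psmb6 had a high share for its 620 bases outside exons.

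**Figure D5:**
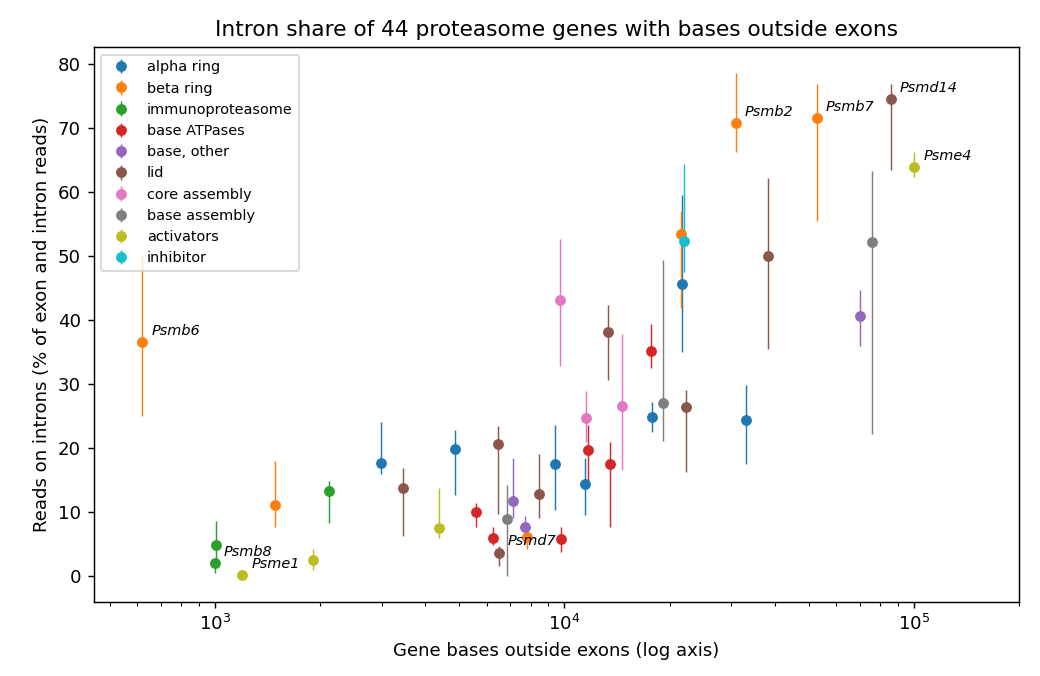
Pooled share of reads on introns (%) against the number of gene bases outside exons (log axis) for 44 tested proteasome genes, with bars from the lowest to the highest library. Psmd14 (74.6%), Psmb7 (71.6%) and Psmb2 (70.8%) stand at the top, and Psme1 (0.238%) and Psmb8 (2.14%) at the bottom.

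Other genes of the pathway were read from lists of related genes. Of 5 further subunit and assembly genes tested, 4 were called (background 71.6%). The most abundant were AI314180, which encodes the adaptor ECM29 (112 to 151 CPM), and the ubiquitin receptor Adrm1 (50.5 to 65.4 CPM). The maturation factor Pomp, which brings beta subunits into the nascent core, had the widest range, with 54.8, 33.1, 42.5, 65.2, 48.0 and 75.4 CPM in libraries 18 to 23. It was highest in libraries 23 and 21 and lowest in library 19. Akirin2, a factor for nuclear import of proteasomes, ranged from 12.7 to 21.97 CPM and was not called (adjusted p of the chi-square test 0.0781).

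Of 9 tested ubiquitin-processing and shuttle factors, 5 were called (background 71.6%). Ddi2, the protease that activates Nfe2l1 (132 to 163 CPM), and Ubqln1 (98.1 to 154 CPM) were the most abundant, and Ubqln2 (32.6 to 58.2 CPM) and Ubqln4 (19.5 to 33.8 CPM, not called) had the widest ranges. Of the 6 ubiquitin and E1 genes, 5 were called (background 71.6%). Ubb, a gene for polyubiquitin, was lowest in library 19 (351 CPM) and highest in library 22 (613 CPM). The median deviation of the proteasome genes was 0.00 in library 22.

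Of the 7 tested regulators of proteasome genes, 6 were called (background 71.6%). Vcp, the ATPase that extracts ubiquitinated proteins (360 to 458 CPM), and Nfe2l2 (113 to 137 CPM) were the most abundant. Ngly1, which activates Nfe2l1 (32.7 to 61.5 CPM), and Tbp (45.9 to 78.8 CPM) had the widest ranges. Nfe2l1, the factor that induces proteasome genes when proteasome activity is low, ranged from 60.8 to 86.5 CPM. All 8 genes of MHC class I presentation were called (background 71.6%). B2m, the light chain of MHC class I (1636 to 2418 CPM), was the most abundant, and B2m and Tap2 (90.5 to 129 CPM) had the widest ranges.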

How the data were processed

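Per the labels' protocols, libraries of RNA from sorted cells (NucleoSpin RNA XS Micro kit) were prepared by the QIAseq UPXome method. The submitters' processing notes name the builds GRCm38 and mm10. Aligner, counting tool, annotation and strand use: not given in the sources used here. Per the file headers, the authors' table gives whole exon read counts per gene, the fraction of a gene's reads on introns, and the ratio of uniquely mapped to all exon reads. The deposited counts are not normalized. The table held 11 further value columns, which were not used, and 0 of 6 libraries matched a sample label, so the planned edgeR comparison of Gpx4 cKO with WT was not run.

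Library sizes were scaled by TMM over 9510 genes that passed filterByExpr (edgeR 4.0.16, R 4.3.3). Genes with at least 200 exon reads were tested with a chi-square test with 5 degrees of freedom and Benjamini-Hochberg adjustment over 9042 genes (threshold 0.05). Intron reads were recovered from the deposited intron fraction and exon count. Counts for the 9042 genes were simulated with counting error only and no other variation between libraries. Each change was placed in a randomly chosen library. In these counts, the test recovered 92.0% of the genes changed 2-fold, 100.0% of those changed 4-fold, and called 11 of 8842 unchanged genes. The simulation cannot show how the test behaves under the further variation of the real libraries. Poisson and binomial intervals are exact at 95%, and a count of 0 was given a limit of 3 reads. DESeq2 1.42.0 size factors, total exon reads, unfiltered TMM, other read minimums, uniquely mapped reads and leaving out libraries were the alternatives. All 50 genes were matched by Ensembl identifier to GENCODE M21 on GRCm38. Values in every library are given for immunoproteasome subunits with their counterparts, activators and inhibitor, the highest and lowest gene per kilobase of each other role, and the 10 widest ranges. For the pathway lists, the 2 highest medians and 2 widest ranges are named, with Nfe2l1 added after its values were seen, and a few genes that this rule takes are left out of the text. The genes and lists were chosen with earlier results of these data known.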

Additional observations from a re-analysis of the deposited data

Results flagged for a closer look

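Dixon's test was applied to 59 sets of 6 values. These were the 45 genes, the summed role groups, the share in each catalytic pair and the intron share of the genes together. In 6 of the 59, the highest or lowest library was separated from the rest by more than the 95% critical share of the range. The sets are not independent, because the role groups are sums of the same genes. Chance alone flags about 1 set in 20. Psma6 had its lowest value, 68.5 CPM, in library 19, with the other 5 libraries between 87.5 and 91.2 CPM. Psmb10 was highest in library 18, at 88.9 CPM, and so was the summed level of the activators, at 682 CPM against 574 to 608 CPM elsewhere. Library 21, the shallowest, gave the highest values of Psmb4 (60.3 CPM), Psmc2 (115 CPM) and Psmd9 (25.3 CPM). These rest on 50, 95 and 21 reads, and Psmb4 and Psmd9 did not differ between libraries in the chi-square test (adjusted p 0.472 and 0.120).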

How the results depend on the processing

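No paired analysis was possible because no library of the table carries a replicate number or matches a sample label. The number of genes called as varying, 37 of 45, was 29 to 38 when each library was left out in turn. It was 29 of 44 without library 18 (63.2% of all genes) and 32 of 44 without library 19 (61.2%). Without library 20 it was 33 of 45 (66.2%) and without library 21 it was 38 of 45 (68.3%). Without library 22 it was 36 of 45 (66.2%) and without library 23 it was 34 of 45 (65.2%). It was 36 with DESeq2 size factors (71.5% of all genes), 38 with total exon reads (73.5%), 38 with unfiltered TMM (72.7%), 36 with uniquely mapped reads (71.0%), 38 of 48 at a minimum of 50 reads (69.3%) and 34 of 38 at 1000 reads (79.3%). Without libraries 21 and 23, chosen after seeing the data, 32 of 45 were called (61.2% of all genes). With total exon reads, the highest to lowest library ratio of summed groups was 1.35 for the other base subunits (1.19 before), 1.46 for base chaperones (1.35), 1.30 for activators (1.19), 1.21 for base ATPases (1.29) and 1.32 for the immunoproteasome (1.24). Leaving out 1 library gave 1.06 to 1.195 for activators, 1.198 to 1.28 for base ATPases, 1.17 to 1.23 for alpha subunits, 1.21 to 1.33 for core chaperones, 1.13 to 1.25 for the immunoproteasome and 1.33 to 1.41 for the lid. The median share of Psmb8 was 98.1% by reads and 96.7% by principal transcript length. For Psmb9 these shares were 72.3% and 60.6%, and for Psmb10 64.7% and 61.9%, with 77.2% to 80.1% for Psmb10 per kilobase when 1 library was left out. Median deviations with total exon reads became 0.14, −0.018 and −0.018 in libraries 18, 19 and 21. With unfiltered TMM they were 0.12, −0.048, −0.11 and 0.0060 in libraries 18, 19, 20 and 23. The length and scaling alternatives move these values by construction, and for the others the cause was not tested. Depth limits library 21 most, where 44 reads of Psmd4 and 1 read of Psmb5 decide the value.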
